A study of Macaca mulatta with 28 samples.

Results

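The 9 male rhesus macaques (Macaca mulatta) classed by the study as very heavy drinkers were compared with its 11 control animals, using RNA sequenced from punches of the ventral tegmental area (VTA) with 1 library per animal. Very heavy drinkers were the animals whose drinking phenotype label is Very-Heavy, so no expression value entered the choice, and both groups together are 20 of the 28 animals of the series. All animals carry the label WT. The drinkers had been induced to drink 4% ethanol with a schedule of food pellets and then chose freely between ethanol and water in daily sessions of 22 h over months, broken by 3 periods of abstinence. Tissue was taken after 30 days of the last abstinence, so the comparison concerns what remained in the VTA after drinking had stopped. Controls had either received maltodextrin with calories matched to a drinker or had been housed without a drinking procedure, and the labels do not tell these 2 kinds apart. By animal number, 3 very heavy drinkers and 8 controls belong to cohort 1, and 6 very heavy drinkers and 3 controls belong to cohort 2. The groups are thus unevenly spread over the cohorts, and cohort was a term in every fit unless stated.

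The VTA holds the cell bodies of the dopamine neurons that project to the nucleus accumbens and cortex, along with GABA and glutamate neurons. Dopamine neurons make their transmitter with tyrosine hydroxylase (TH), load it into vesicles with SLC18A2, take it back up through the transporter SLC6A3 and sense it through the autoreceptor DRD2. Ethanol raises the firing of these neurons, and repeated drinking and withdrawal are known to change their inputs and their excitability. A VTA punch also holds much white matter and glia, so its RNA is a mixture of cell types.

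Total estimated counts lay between 14338548 and 24845484 in very heavy drinkers (median 22347459) and between 12303914 and 27338669 in controls (median 22339349). Totals differed by less than their spread over animals (exact permutation within cohort, two-sided as are all such tests here, p = 0.593), and so did the share of counts from mitochondrial transcripts, with a median of 49.2% in very heavy drinkers and 46.3% in controls (exact permutation p = 0.645). All 13 dopamine neuron markers were detected, and their summed level ran from 76.2 to 1811 CPM (counts per library scaled to a common total) in very heavy drinkers and from 47.3 to 1976 CPM in controls. Oligodendrocyte markers summed to between 14640 and 21233 CPM and between 13471 and 22557 CPM. Of the 6 blood markers only 3 had an entry among the deposited counts, and none of these passed the count filter. Each gene symbol is represented by 1 Ensembl transcript, so a count of 0 is a statement on that transcript and not on the gene. The listed transcript of the astrocyte gene SLC1A2 was at 0 in all 20 animals, while the tested astrocyte markers summed to between 3981 and 5927 CPM.

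The 3 very heavy drinkers of cohort 1 stood apart from the other 17 animals in their number of transcripts without a count, and the leading results below are therefore also given by cohort. Between 2012 and 2463 of the tested transcripts were at a count of 0 in these 3 libraries, against 1218 to 1865 in the controls of cohort 1 (exact permutation p = 0.00606, the smallest that cohort 1 allows). In cohort 2 the ranges were 1226 to 1672 and 1090 to 1341 and overlapped (exact permutation p = 0.143). Permuted within cohort over all 20 animals, this was the one of 5 library measures that passed adjustment (exact permutation p = 0.000289, Benjamini-Hochberg adjusted p = 0.00144). The 4 heavy drinkers of cohort 1 had 1790 to 2403 such transcripts, so high numbers were also found in another group of that cohort.

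Within cohort 1, very heavy drinkers held on average less of GC-rich and of long transcripts than controls. Mean log2 CPM of the GC-rich quartile minus that of the GC-poor quartile was −0.34 ± 0.13 (SD, n = 3) in very heavy drinkers and −0.01 ± 0.13 (SD, n = 8) in controls of cohort 1 (exact permutation p = 0.00606). In cohort 2 it was −0.10 ± 0.08 (SD, n = 6) and −0.16 ± 0.08 (SD, n = 3), a difference of the opposite sign (exact permutation p = 0.321). The corresponding contrast of long and short transcripts was −0.11 ± 0.15 (SD, n = 3) and 0.16 ± 0.11 (SD, n = 8) in cohort 1 (exact permutation p = 0.0121), and 0.20 ± 0.14 (SD, n = 6) and 0.23 ± 0.14 (SD, n = 3) in cohort 2 (exact permutation p = 0.762). Over both cohorts, neither contrast passed adjustment over the 5 measures (adjusted p = 0.0841 and 0.0788, exact permutation within cohort). On the first principal component of log2 CPM, which held 10.8% of the variance, the 3 animals scored −130.7, −93.8 and −37.9, and all other animals lay between −10.9 and 31.3. The groups differed on this component when permuted within cohort (exact permutation p = 0.00281, adjusted p = 0.0141 over 5 components), with a p of 0.00606 within cohort 1 and 0.869 within cohort 2 (exact permutation). On variance stabilized counts the call was lost, with 0.137 for the first component (exact permutation p) and a lowest adjusted p of 0.185 over the 5. The part of RNA quality or library preparation in these differences was not tested.

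**Figure D1:**
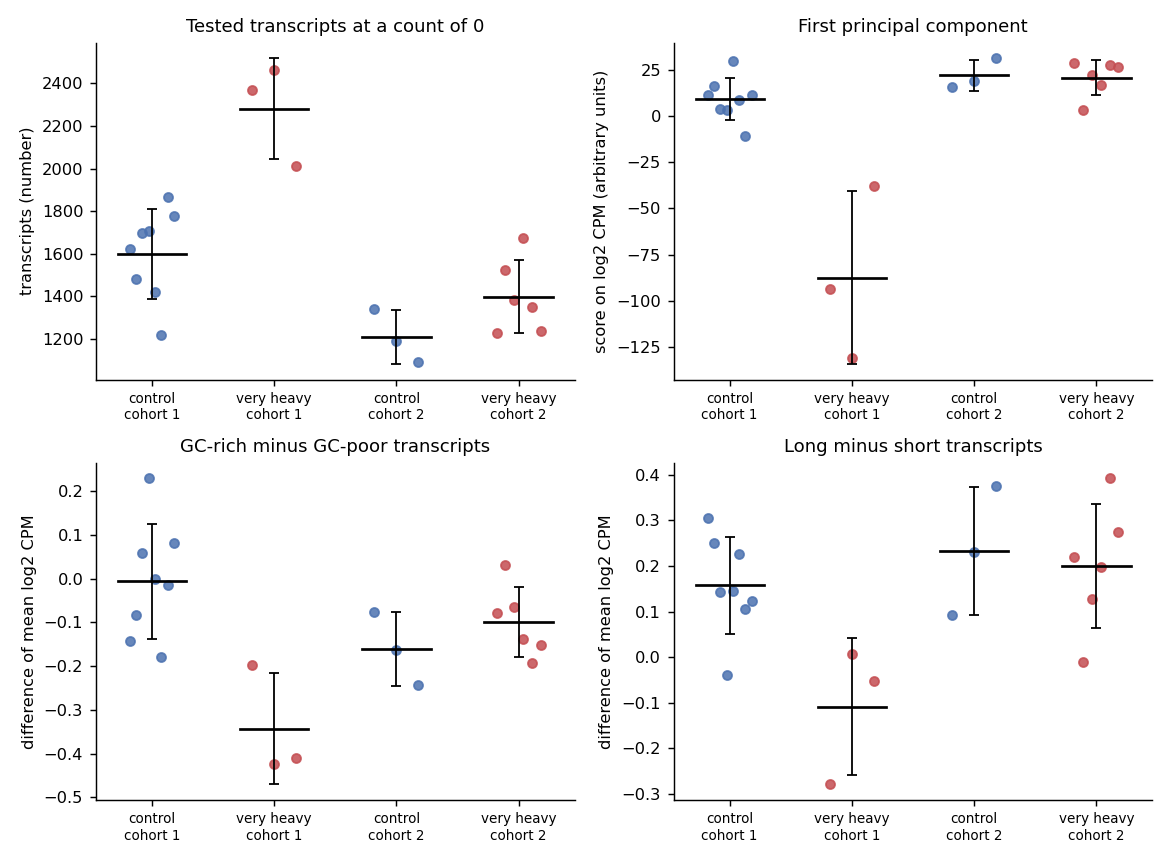
Library measures by group and cohort, 1 point per animal, with the mean as a bar and the SD as an error bar. The upper panels give the number of tested transcripts at a count of 0 and the score on the first principal component, and the lower panels the contrast of GC-rich with GC-poor and of long with short transcripts in log2 CPM. The 3 very heavy drinkers of cohort 1, at 2012 to 2463 transcripts without a count, lie apart from the other animals in the upper panels.

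No transcript differed between very heavy drinkers and controls past adjustment. Of 13354 transcripts tested with edgeR's quasi-likelihood test and cohort as a term, 0 (0%) had a Benjamini-Hochberg adjusted p under 0.05. No adjusted p lay below 0.626. At an unadjusted p under 0.05 there were 807 transcripts, or 6.04% of those tested, of which 356 (2.67%) were higher and 451 (3.38%) were lower in very heavy drinkers. With limma-voom the counts were 0 adjusted and 898 unadjusted, and with DESeq2's Wald test 30 and 1125, and 18 of those 30 transcripts were at 0 in at least 1 animal. In no transcript did the CPM of all 9 very heavy drinkers lie beyond those of all 11 controls (0 of 13354, 0%). For the 8433 transcripts with at least 5 counts in every animal, the median standard error (SE) of log2 fold changes was 0.16, and it was 1.16 for the 4494 at 0 in some animal. All fold changes below are on the log2 scale, very heavy minus control, and their p-values are unadjusted unless stated. A lower level in such bulk tissue can come from fewer cells of a type or from less RNA per cell, and these cannot be told apart.

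Among transcripts counted in every animal, the 12 with the lowest p in the upward direction included TMA7, PFDN5 and RPL38. They were mostly short, as 2 of the 12 were longer than the median of all transcripts. TMA7, a small protein associated with translating ribosomes, was at 89.3, 110 and 158 CPM (lowest, median, highest) in very heavy drinkers and at 75.8, 94.1 and 111 CPM in controls. The 3 highest values belonged to cohort 1 very heavy drinkers, and the groups overlapped. Its log2 fold change was 0.37 (SE 0.089, p = 0.000491, edgeR adjusted p = 0.626), with 0.56 in cohort 1 and 0.16 in cohort 2. The listed transcript, ENSMMUT00000092191.1, belongs to a gene on chromosome 2 of Mmul_10 from 104491310 to 104495059. PFDN5, a subunit of the prefoldin complex that passes newly made actin and tubulin to the chaperonin, was at 114, 155 and 193 CPM in very heavy drinkers and at 106, 125 and 160 CPM in controls, with a log2 fold change of 0.32 (SE 0.082), 0.45 in cohort 1 and 0.18 in cohort 2. RPL38, a protein of the large ribosomal subunit, was at 92.5, 146 and 227 CPM against 111, 125 and 137 CPM, with a log2 fold change of 0.40 (SE 0.11), 0.53 in cohort 1 and 0.25 in cohort 2. For both genes the highest value was again from cohort 1, and the groups overlapped. The ribosomal-protein-like RPS27L (0.33), the cytosolic arginyl-tRNA synthetase RARS1 (0.47) and NAA20 (1.29), the catalytic subunit of an N-terminal acetyltransferase, were also among the 12.

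Other transcripts of the 12 were CADM2, STMN1, HMGB1, FKBP10 and RWDD2B. CADM2, a synaptic adhesion molecule, was at 11.6, 17.3 and 19.2 CPM in very heavy drinkers and at 8.43, 10.6 and 14.8 CPM in controls, which gave a log2 fold change of 0.49 (SE 0.13, p = 0.00154). It differed by a similar amount in cohort 1 (0.45) and cohort 2 (0.53), and in cohort 2 all 6 very heavy drinkers, from 12.1 CPM upward, lay above the 3 controls, which reached 11.9 CPM. In cohort 2 the groups were separate in 2.04% of all transcripts, and the arrangement of the animals alone gives 2.38%. STMN1, which binds tubulin and destabilizes microtubules, was at 8.40 to 12.7 CPM in the 3 very heavy drinkers and at 0.547 to 2.77 CPM in the 8 controls of cohort 1. These ranges did not overlap, as was the case in 4.73% of all transcripts in that cohort. In cohort 2 the ranges of STMN1 were 0.198 to 4.30 and 0.993 to 3.67 CPM and overlapped, and the fold change over both cohorts was 1.75 (SE 0.46). HMGB1, a chromatin protein that acts as an alarm signal outside the cell, differed by 0.24 on the log2 scale (SE 0.065), and FKBP10, a prolyl isomerase of the endoplasmic reticulum, by 0.29 (SE 0.077). In RWDD2B (0.72) as in FKBP10 a single cohort 1 animal, very heavy replicate 2, lay far above the other very heavy drinkers, and without it FKBP10 was at 0.19. In cohort 2 FKBP10 was at 35.6 to 38.6 CPM in very heavy drinkers and at 28.7 to 32.3 CPM in controls, without overlap, as for CADM2.

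The 12 transcripts with the lowest p in the downward direction were mostly long and GC-rich, as 10 were longer and 11 richer in GC than the median of all transcripts. AP1B1, a subunit of the clathrin adaptor that sorts cargo at the Golgi, was at 86.2, 134 and 151 CPM in very heavy drinkers and at 116, 144 and 177 CPM in controls. The 3 lowest animals were those of cohort 1, and the log2 fold change was −0.36 (SE 0.085, p = 0.000413, edgeR adjusted p = 0.626), with −0.49 in cohort 1 and −0.22 in cohort 2. P4HTM, a membrane-bound prolyl hydroxylase, was at 9.94, 22.1 and 35.8 CPM against 24.3, 33.2 and 42.3 CPM, a log2 fold change of −0.66 (SE 0.17), −0.92 in cohort 1 and −0.38 in cohort 2. ANKRD52, a regulatory subunit of protein phosphatase 6, was at 30.8, 52.5 and 61.2 CPM against 52.3, 61.7 and 86.0 CPM, a log2 fold change of −0.44 (SE 0.11), −0.58 in cohort 1 and −0.28 in cohort 2. For both, the median very heavy drinker lay near or below the lowest control, and the groups still overlapped. TMC6 (−0.73), ZNF469 (−0.90), CRB2 (−0.74), GCN1 (−0.66), FZR1 (−0.80), RASA3 (−0.36), DNAH9 (−0.60) and TECPR1 (−0.44) were also among the 12. GCN1 activates the kinase that senses stalled ribosomes, FZR1 activates the anaphase-promoting complex, and TECPR1 takes part in autophagy. Of the 24 leading transcripts in both directions, 13 had an adjusted p under 0.05 within cohort 1 (edgeR's quasi-likelihood test), and 4 had an unadjusted p under 0.05 within cohort 2, among them RWDD2B, FKBP10 and CADM2. Over all transcripts these shares were 1.92% and 2.58%, and since the 24 were picked on the same animals, nothing is read from their counts.

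**Figure D2:**
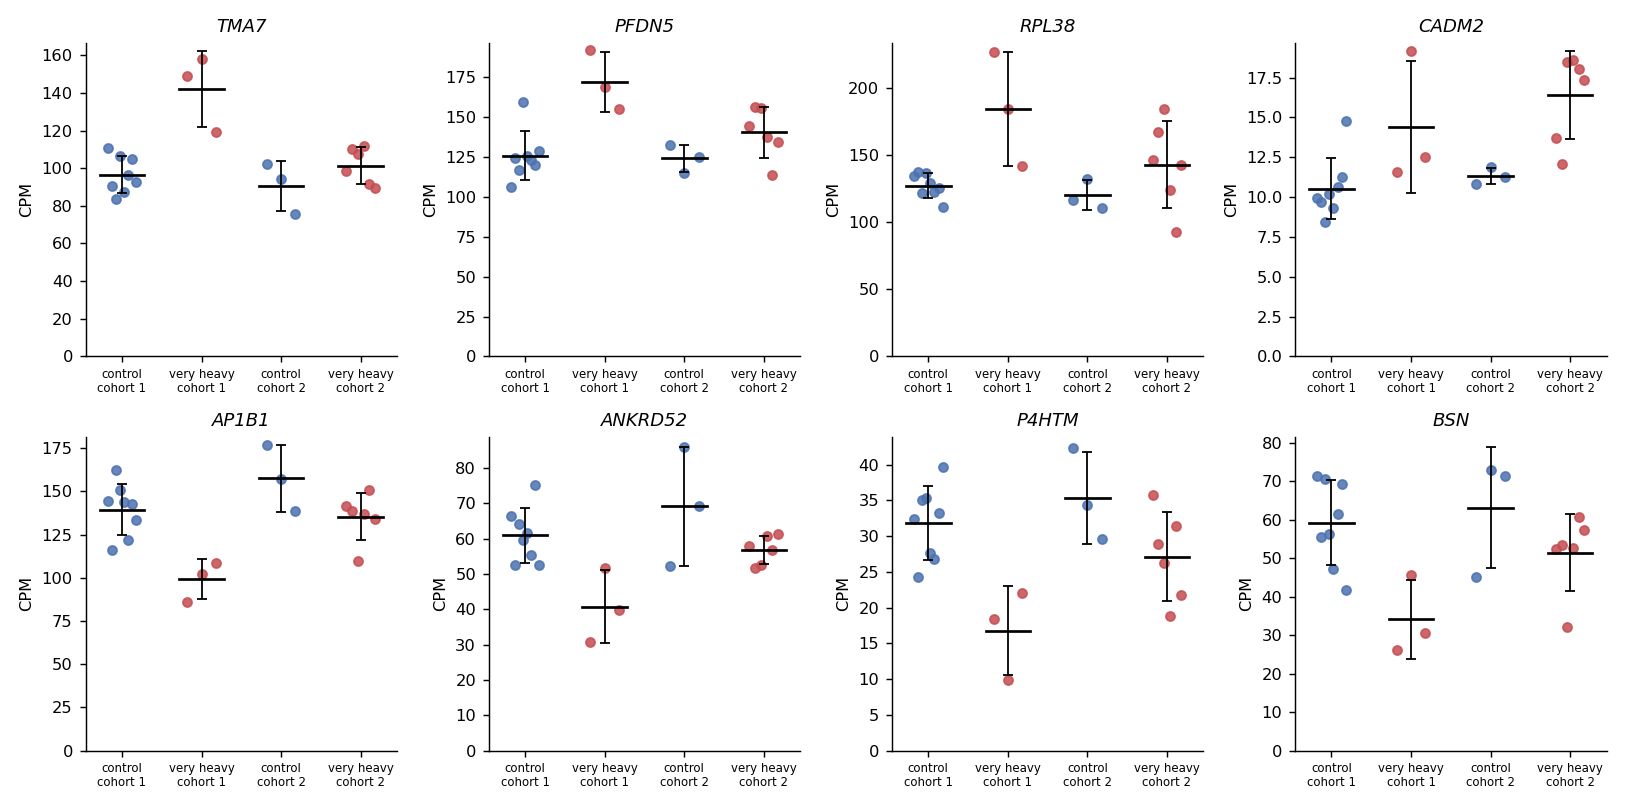
CPM of 8 transcripts by group and cohort, 1 point per animal, with the mean as a bar and the SD as an error bar. The upper row holds transcripts higher and the lower row transcripts lower in very heavy drinkers, with BSN from the vesicle release list at the end. In 7 of the 8 panels the group means lie farther apart in cohort 1 than in cohort 2, whereas CADM2 differs by a similar amount in both cohorts.

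Ribosomal protein transcripts were the pathway list with the largest number of members at a low p, and also the longest of these lists. Of 78 cytosolic ribosomal proteins listed, 65 passed the count filter, and 23 of these (35.4%) were higher at an unadjusted p under 0.05 against 2.67% of all transcripts, while 0 were lower. The fold change was positive for 64 of the 65, and its median was 0.19 against −0.02 over all transcripts tested. None had an adjusted p under 0.05 (edgeR's quasi-likelihood test). Ribosomal proteins are made in step with each other, so the members are not independent of one another. Many also have near-identical processed copies elsewhere in the genome that could take or lend counts. Besides RPL38, the low-p members included RPL36 (0.31, SE 0.094), RPL30 (0.38, SE 0.12), RPS26 (0.27, SE 0.085) and RPS20 (0.26, SE 0.093). RPS29 (1.78, SE 0.80) was at 0 in 3 animals, and the other 22 had fold changes between 0.16 and 0.41. RPL30 was at 0.24 without very heavy replicate 1.

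The values of the ribosomal proteins were mostly above 0 in both cohorts. The median over the 65 was 0.22 in cohort 1 and 0.17 in cohort 2, with 61 and 62 positive values, whereas the medians of all transcripts were −0.05 and 0.00. Within cohort 1, 18 members were higher at an unadjusted p under 0.05, against 6.53% of all transcripts. Within cohort 2, 1 of the 65 was, a share near the 1.29% of all transcripts. The mean log2 CPM of the 65 transcripts was at 6.53, 7.11 and 7.51 (lowest, median, highest) in very heavy drinkers and at 6.77, 6.92 and 7.32 in controls. In cohort 2, 5 of 6 very heavy drinkers lay above all 3 controls and the remaining animal held the lowest value of all 20. In cohort 1, 1 of 3 lay above all 8 controls. The number of low-p members depended on single animals, from 9 without very heavy replicate 1 to 36 without very heavy replicate 8, and it was 15 without very heavy replicate 2. Without cohort as a term it was 11.

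Ribosomal protein transcripts are short, with a median length of 655 bases against 2838 over all transcripts, and short transcripts as a class moved the same way. The median fold change of the shortest 20% of all transcripts was 0.05, with 0.09 in cohort 1 and 0.01 in cohort 2. After correction of each library for GC content, 25 of the 65 were higher at an unadjusted p under 0.05, and the median was 0.20 against −0.01 over all transcripts. After correction for length as well, 7 were higher and 0 lower, and the median was 0.083 against −0.01. The part of transcript length in the shift was not tested beyond these values.

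The low-p genes of the vesicle release machinery lay in the other direction. Of 27 tested, 5 (18.5%) were lower at an unadjusted p under 0.05 against 3.38% of all transcripts, and 0 were higher. Of the 5, UNC13B had no count in any very heavy drinker and so passed the filter through controls alone, which leaves 4. The median fold change was −0.25, with 18 of the 27 negative. By cohort it was at −0.10 in cohort 1, where 11 were positive, and at −0.35 in cohort 2, where 2 were. At an unadjusted p under 0.05, 4 were lower and 1 higher within cohort 1 (10.4% and 6.53% of all transcripts were) and 1 was lower within cohort 2 (1.3% were). Without cohort as a term, 2 were lower and the median was −0.17. BSN, the scaffold protein bassoon of the presynaptic active zone, was at 26.2, 52.5 and 60.9 CPM in very heavy drinkers and at 41.9, 61.6 and 73.1 CPM in controls, and its log2 fold change was −0.55 (SE 0.16, p = 0.00298), with −0.79 in cohort 1 and −0.30 in cohort 2. UNC13A, which primes vesicles for fusion, had −0.45 (SE 0.19), SYN2, which tethers the reserve pool, −0.33 (SE 0.15), and DNM1, the dynamin of synaptic endocytosis, −1.46 (SE 0.49). Their ranges overlapped between groups, and in DNM1 1 very heavy drinker reached 61.5 CPM while the median of the group was 13.5 CPM. UNC13B was at 0 in all 9 very heavy drinkers and in 6 of 11 controls, and 5 controls held 2.89 to 17.2 CPM of it. These transcripts are long (median 4208 bases), and the median of the longest 20% of all transcripts was −0.25 in cohort 1 and −0.0047 in cohort 2. The part of length in the list's values was not tested beyond a correction. After correction for GC content and length the median was −0.10, and 3 members were lower at an unadjusted p under 0.05.

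**Figure D3:**
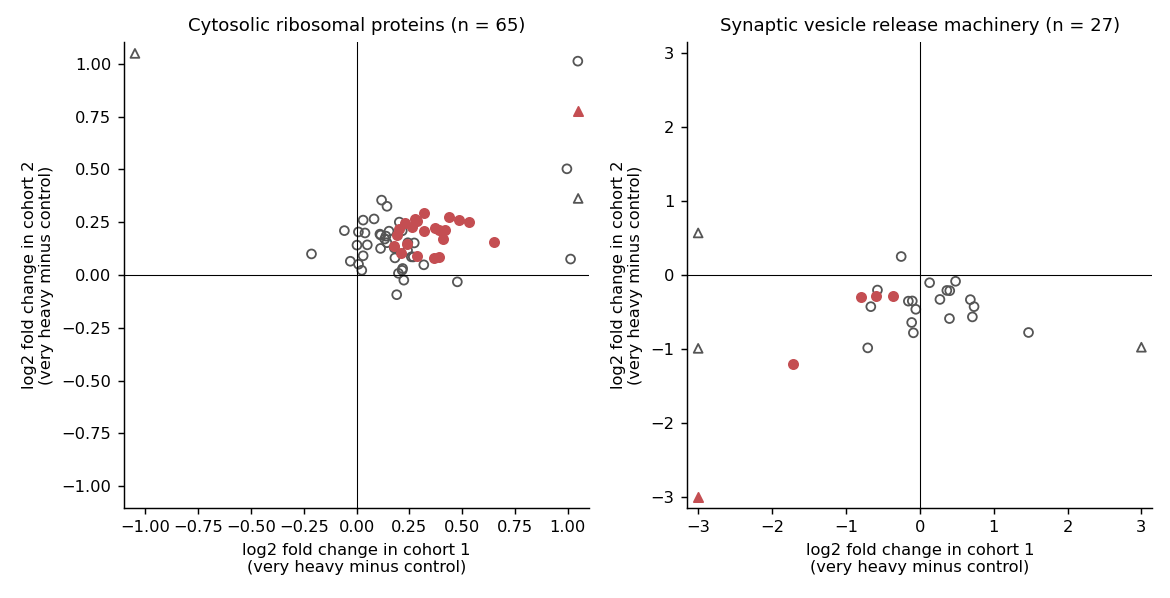
Log2 fold change, very heavy minus control, in cohort 1 (horizontal) and cohort 2 (vertical) for the tested ribosomal protein and vesicle release transcripts, 1 point per transcript. Filled points have an unadjusted p under 0.05 over both cohorts, and triangles are values beyond the axes, drawn at the edge. Most ribosomal protein points lie above 0 in both cohorts, around the medians of 0.22 and 0.17, and 25 of the 27 vesicle release points lie below 0 in cohort 2.

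No difference in genes of dopamine synthesis and transport was detectable at this precision. Of 13 tested, 0 had an unadjusted p under 0.05, and the same held for 11 midbrain dopamine transcription factors. TH was at 10.2, 76.5 and 461 CPM in very heavy drinkers and at 5.80, 114 and 808 CPM in controls. Its values spread over more than an order of magnitude in both groups, so the log2 fold change of −0.63 had a SE of 0.97 and a 95% confidence interval from −2.65 to 1.39. SLC6A3 was at 8.86, 51.2 and 827 CPM against 6.35, 75.2 and 789 CPM, with a log2 fold change of 0.03 (95% confidence interval −2.06 to 2.13). For SLC18A2 the value was −0.36 (SE 1.02), and for DRD2 0.29 (95% confidence interval −1.53 to 2.12). Large differences in either direction therefore lay within the error, and the signs of SLC6A3, SLC18A2 and DRD2 changed when single animals were left out.

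Of the opioid, dopamine and transmitter genes that the study followed, 1 was at a low p. OPRK1, the kappa opioid receptor, was at 3.55, 3.82 and 16.0 CPM in very heavy drinkers and at 1.83, 7.30 and 22.6 CPM in controls, and its log2 fold change was −0.22 (95% confidence interval −1.12 to 0.67). PDYN, the precursor of its ligand dynorphin, had −0.43 (SE 0.45). ARRB1, an arrestin that uncouples receptors from G proteins, was the member of the 10 tested opioid genes at a low p, with −0.23 (SE 0.11, p = 0.0455), and its −0.41 in cohort 1 compared with −0.03 in cohort 2. It was no longer at a low p without cohort as a term, by limma-voom or with DESeq2's size factors. The same held with the oligodendrocyte score as a term and after correction for GC content, with or without length. ARRB2 did not pass the count filter. The dopamine receptors DRD1 and DRD5 had −0.09 (SE 0.33) and 0.17 (SE 0.29), and the vesicular transporters of glutamate and GABA, SLC17A6 and SLC32A1, had 0.20 (SE 0.31) and −0.02 (SE 0.19).

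**Figure D4:**
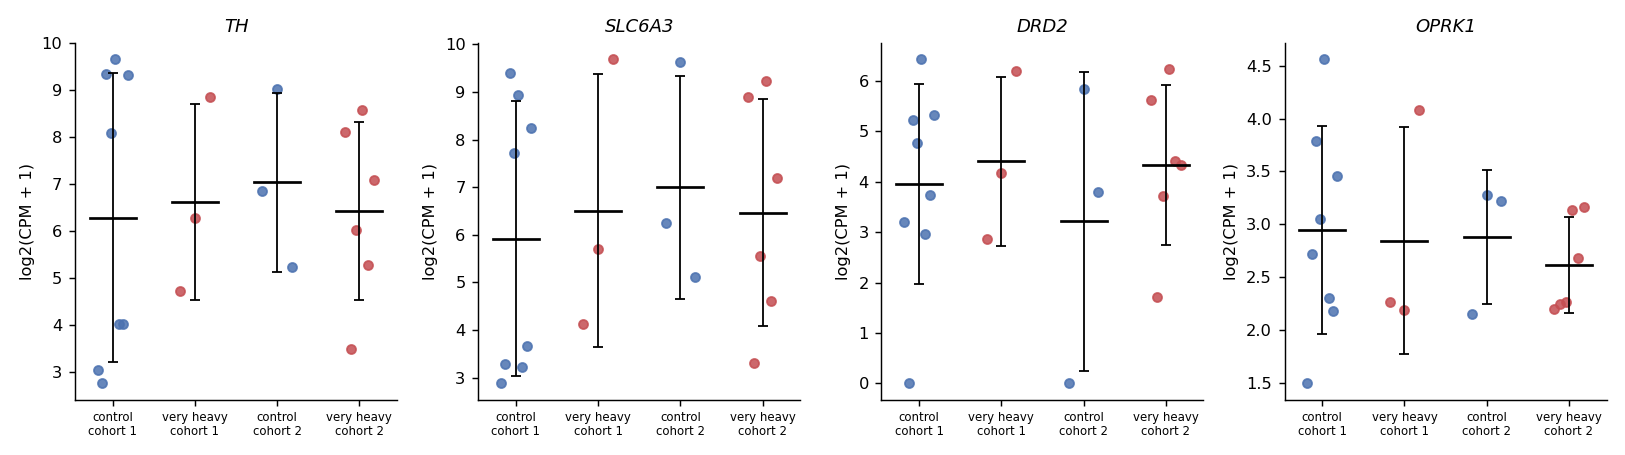
Level of TH, SLC6A3, DRD2 and OPRK1 as log2(CPM + 1) by group and cohort, 1 point per animal, with the mean as a bar and the SD as an error bar. Within every group the animals spread over several log2 units for TH and SLC6A3, and the groups overlap throughout, from 10.2 to 461 CPM of TH in very heavy drinkers and from 5.80 to 808 CPM in controls.

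Elsewhere among the 26 pathway lists, few members stood out from the 2.67% and 3.38% of all transcripts, and 9 lists had none at an unadjusted p under 0.05. These 9 covered dopamine synthesis, dopamine transcription factors, stress hormones and receptors, glycine receptors, antioxidant enzymes, immediate early genes, clock genes, neurotrophic factors and the mitochondrially encoded proteins. Among chaperones of the endoplasmic reticulum, HSPA5 (0.27, SE 0.12) and HSP90B1 (0.19, SE 0.081) were higher, and their values in cohorts 1 and 2 were alike, at 0.25 and 0.31 for HSPA5 and 0.19 in both for HSP90B1. Without very heavy replicate 3 they were 0.16 and 0.12. Very heavy replicates 3 (cohort 1) and 4 (cohort 2) held 578 and 574 CPM of HSPA5. The other very heavy drinkers held 330 to 426 CPM and controls 304 to 422 CPM. HSP90B1 was at 616 to 658 CPM in very heavy replicates 3, 4 and 7. In the other very heavy drinkers it was at 462 to 523 CPM, within the 401 to 530 CPM of controls. CALR was also at a low p, but it rested on 1 animal at 7.26 CPM with 17 of 20 at 0. Of 22 members tested there, 3 were higher and 0 lower.

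Channels and transmitter receptors gave few members at a low p. Of 22 potassium and pacemaker channels, 3 (13.6%) were lower against 3.38% of all transcripts, among them the leak channel KCNK9 (−0.43) and the N-type calcium channel CACNA1B (−0.37). The fold change was negative for 18 of the 22, with a median of −0.16, −0.19 in cohort 1 and −0.21 in cohort 2. After correction for GC content and length the median over both cohorts was 0.0011, and 1 channel was lower. Of 20 GABA genes, 2 were lower, the GABA transporter SLC6A11 (−0.29) and the GABA-degrading enzyme ABAT (−0.76), both chiefly in cohort 1 at −0.49 and −1.28 against −0.08 and −0.22 in cohort 2. GRIN3A (−0.38), an NMDA receptor subunit, was the member of 35 glutamate genes at a low p, and GNAI3 (0.24), an inhibitory G protein, that of 13 dopamine receptor and GIRK genes. GRIN3A was at −0.23 without control replicate 10. The cannabinoid receptor CNR1 (−1.02) was lower and its interacting protein CNRIP1 (0.29) higher, among 5 tested. CNR1 was at −0.84 in cohort 1 and −1.22 in cohort 2, whereas CNRIP1 was at 0.64 and −0.10, of opposite sign. CHRNB2, of 8 nicotinic receptors, and HTR2C, of 12 serotonin receptors, were at 0 in 16 of the 20 animals, and no fold change is given for them. SST (0.81, SE 0.35), the peptide somatostatin and also a GABA neuron marker, was the member of 18 neuropeptides at a low p, with 1.47 in cohort 1 and 0.07 in cohort 2. It rested largely on very heavy replicate 1 at 207 CPM, without which it was 0.33. ADH5 (0.18), an alcohol dehydrogenase family member that chiefly handles formaldehyde adducts, was the 1 of 13 ethanol metabolism genes, with 0.39 in cohort 1 and −0.05 in cohort 2.

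Among the remaining lists, the deacetylase HDAC1 (0.21) was higher and HDAC6, at 0 in 7 animals, lower out of 25 chromatin enzymes. The sterol enzymes MVD (−0.38) and DHCR7 (−0.30) were lower and IDI1 (0.34) higher, out of 21 cholesterol genes. TUBB4A (−0.29), a tubulin abundant in oligodendrocytes, was lower out of 17 microtubule genes, with −0.68 in cohort 1 and 0.13 in cohort 2. TUBB4A was at −0.19 without very heavy replicate 3 and at −0.20 without very heavy replicate 2, and DHCR7 at −0.19 without very heavy replicate 2. VAPB (−0.31, SE 0.11), which tethers the endoplasmic reticulum to other membranes, and CADM4 (−2.16) were lower out of 6 CADM and VAP genes. VAPB and CADM2 were known from an earlier report on all drinkers, so nothing is read from this count. In cohort 1, where 4.73% of all transcripts had separate groups, CADM4 ran from 0 to 6.63 CPM in the 3 very heavy drinkers. Controls of that cohort held 30.0 to 86.4 CPM of it. In cohort 2 its ranges were 23.0 to 85.3 and 33.9 to 62.9 CPM, with a fold change of 0.05, and with single animals left out the value over both cohorts ran from −2.92 to −1.34.

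Over both cohorts, few cell type markers were at a low p. Of 11 marker lists that could be tested, 8 had no member at an unadjusted p under 0.05, among them those of dopamine, glutamate, serotonin and noradrenaline or cholinergic neurons, oligodendrocytes, astrocytes, vessels and ependyma. The exceptions were SST, HMGB1 in the microglia and innate immune list of 23, and the oligodendrocyte precursor marker CSPG4 (−0.33). The difference of very heavy drinkers from controls in oligodendrocyte markers was lower in cohort 1 than in cohort 2. The 13 markers had a median log2 fold change of −0.34 in cohort 1 and 0.16 in cohort 2, each of the 13 fold changes was higher in cohort 2, and 5 of the differences between cohorts had an unadjusted p under 0.05, against 8.18% of all transcripts. Their summed level had a median of 17542 CPM in very heavy drinkers and 19664 CPM in controls of cohort 1, and of 17855 and 15872 CPM in cohort 2, so the medians of the cohorts lay farther apart in controls than in very heavy drinkers. The 4 precursor markers had medians of −0.67 and 0.04. SOX10 (−0.54), a transcription factor of the oligodendrocyte lineage, and GPR17 (−0.85), a receptor of maturing precursors, had an edgeR adjusted p under 0.05 within cohort 1, and both were named after their values were seen. Their values in cohort 2 were 0.16 and 0.11. The 13 dopamine neuron markers had a median SE of 0.95, so a difference in them was not detectable at this precision. Summed microglia markers lay between 734 and 1771 CPM in very heavy drinkers and between 1146 and 1548 CPM in controls. With the dopamine neuron score or the oligodendrocyte score of each animal as a further term, 0 transcripts passed adjustment and 856 and 936 had an unadjusted p under 0.05.

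Within cohort 1 the comparison did call transcripts. In a fit with 1 mean per group and cohort, 257 of 13354 (1.92%) had an edgeR adjusted p under 0.05 between the 3 very heavy drinkers and 8 controls of cohort 1, 83 higher and 174 (1.3%) lower. Fitted on the 11 animals of cohort 1 alone, without the animals of cohort 2 to estimate the spread, 19 were called, 18 of them among the 257. Within cohort 2, 0 (0%) did in the same fit, with 345 at an unadjusted p under 0.05, 50 by DESeq2 and 1 by limma-voom. Of the 50, 48 were at 0 in at least 1 animal. Median standard errors in this fit were 0.22 and 0.23 over transcripts counted in every animal. The fit takes the same spread for both cohorts, so these values follow the group sizes. They cannot show whether the cohorts were equally precise. Of the 257 transcripts, 85 had the same sign in cohort 2 and 0 of these an unadjusted p under 0.05 there. Their median change was 0.70 in absolute value in cohort 1 and −0.07 in cohort 2 when counted in the direction of cohort 1.

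The transcripts called in cohort 1 differed from the rest in base composition and length. Those that were lower had a median GC content of 59.8% and a median length of 4593 bases, those that were higher 42.7% and 1552 bases, and all tested transcripts 50.3% and 2838 bases. Over all transcripts, the median fold change in cohort 1 went from 0.12 in the GC-poorest 20% to −0.27 in the GC-richest 20%, and from 0.09 in the shortest 20% to −0.25 in the longest 20%. In cohort 2 it went from −0.04 to 0.04 with GC content and from 0.01 to 0.00 with length. After correction for GC content 70 transcripts were called, 67 of them among the 257, and after correction for length as well 14 were (2 higher, 12 lower), all among the 257. Leaving out 1 animal at a time, the count ran from 156, without very heavy replicate 2, to 280.

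**Figure D5:**
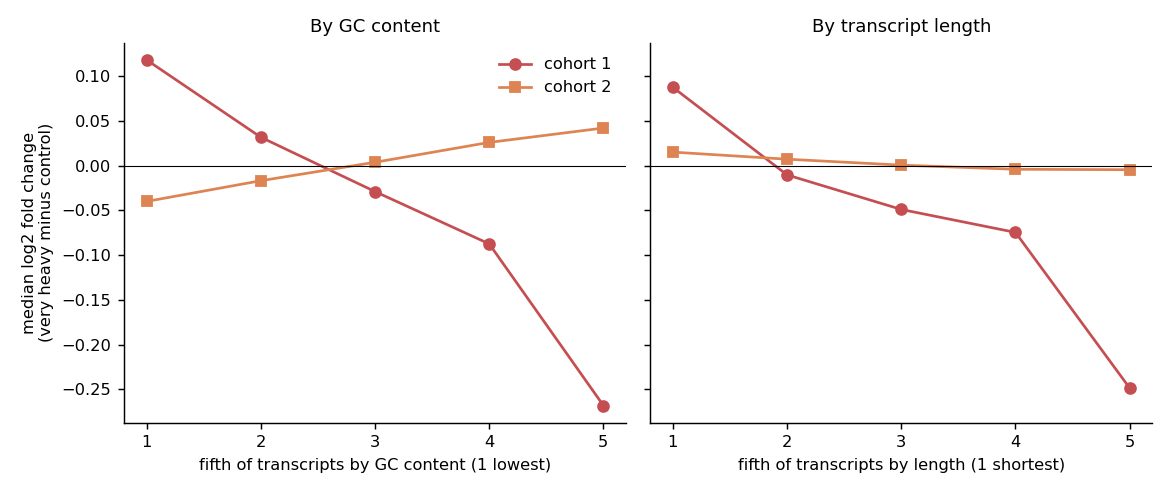
Median log2 fold change, very heavy minus control, of the tested transcripts in 5 equal classes by GC content and by length, with cohort 1 as circles and cohort 2 as squares. In cohort 1 the median falls from 0.12 to −0.27 with GC content and from 0.09 to −0.25 with length, and in cohort 2 it stays between −0.04 and 0.04.

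Named after their values were seen, the leading calls of cohort 1 among transcripts counted in every animal were as follows. Higher were the HSP70 cochaperone DNAJA2 (0.47), the prefoldin subunit PFDN6 (0.55), the actin nucleation subunit ARPC3 (0.47), the mTOR activator RHEB (0.50), the complex I subunit NDUFB5 (0.45), the mitophagy receptor BNIP3 (0.44), the centrin CETN2 (0.50) and C2H3orf14 (0.56). Lower were MED12 (−0.57), a subunit of the Mediator kinase module, fatty acid synthase FASN (−0.92), the lipid transporter ABCA2 (−0.80), PPP1R16B (−0.78), the oligodendrocyte tubulin-binding protein TPPP (−0.70), the repressor CIC (−0.74), CRB2 (−1.32) and GCN1 (−1.17). Their values in cohort 2 ran from −0.25 for RHEB to 0.13 for ABCA2.

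The cohorts differed in the effect itself for 6 of 13354 transcripts (0.0449%, edgeR adjusted p under 0.05 for the difference), IGSF11, CHD6, MED12, DNAJA2, PLXNB1 and RHEB. IGSF11, an adhesion molecule of the immunoglobulin family, was at 0 in all 3 very heavy drinkers of cohort 1 and at 13.1 ± 4.68 CPM (SD, n = 8) in its controls, at least 71.0-fold lower when 3 counts per library are taken as the floor. In cohort 2 it was at 8.73 to 12.8 CPM in very heavy drinkers and 5.39 to 16.3 CPM in controls. CHD6, a chromatin remodeller, was likewise at 0 in the same 3 animals and at 18.7 ± 9.85 CPM (SD, n = 8) in their controls, at least 101-fold lower by the same floor. MED12 was at 82.9 to 91.9 CPM in very heavy drinkers and 117 to 136 CPM in controls of cohort 1, and at 121 to 133 and 110 to 127 CPM in cohort 2. In all 6 the ranges of the groups were separate in cohort 1, as they were in 4.73% of all transcripts, and the 6 were picked by a measure that includes cohort 1. After correction for GC content, with or without length, 2 of 13354 passed, and the count was 34, 29 and 52 without very heavy replicate 1, 2 and 3 in turn.

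Very heavy drinkers were also set beside the 5 heavy drinkers, 4 of which belong to cohort 1. Of 13769 transcripts, 0 (0%) differed between very heavy and heavy drinkers past adjustment in edgeR's quasi-likelihood test, 863 had an unadjusted p under 0.05, and DESeq2 called 77, 70 of which were at 0 in at least 1 animal. The heavy drinkers against the same 11 controls gave 0 and 1003. The ribosomal protein median was 0.21 for very heavy minus heavy and −0.04 for heavy minus control, and 11 of the 65 were higher than in heavy drinkers at an unadjusted p under 0.05, against 3.29% of all transcripts. For the vesicle release list these medians were −0.30 and 0.08. TMA7 had 0.34 and 0.03 in the same order, CADM2 0.17 and 0.34, and STMN1 −0.12 and 1.88. These comparisons share animals with the main one, so their values are set side by side only.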

How the data were processed

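RNA from VTA punches of 28 animals had been prepared with the Nugen Universal Plus mRNA kit and sequenced with 1 library per animal. The authors trimmed reads with Trim Galore 0.6.7, quantified transcripts with Salmon 1.9.0 on Mmul_10, and the deposited table gives the estimated count of each transcript per animal, not normalized. DESeq2 1.36.0 is also named in the submitters' processing notes. The table has 16886 entries, and the 1 without a gene symbol (1.16e-05% of counts) was left out. Groups came from the labels and cohorts from the animal numbers, and replicate numbers follow accession order. Estimated counts were rounded, and transcripts that reached 5 counts in 3 or more of the 20 animals were tested by the quasi-likelihood method of edgeR 4.0.16 (TMM normalization, cohort and group as terms, Benjamini-Hochberg adjustment at 0.05, R 4.3.3). The authors extracted RNA with the AllPrep DNA/RNA/miRNA Universal Kit and checked its integrity on a Bioanalyzer. Integrity values and extraction batches of single animals are not given in the sources used here.

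Standard errors are the log2 fold change divided by the square root of F. CPM are normalized by TMM, and log2 CPM used a prior count of 2. GC content and length are medians over RefSeq transcripts of Mmul_10, matched for 95% of symbols. Library measures were compared by two-sided exact permutation within cohort (13860 arrangements) with Python 3.11.15 and scipy 1.17.1. No pair of libraries shared more than 1.74% of counts. The members, the 26 pathway lists and the 12 marker lists were chosen with earlier results of these data known. Named transcripts are the 12 in each direction with the lowest p among those with at least 5 counts in every animal, list members with an unadjusted p under 0.05, genes the study followed, and STMN1, VAPB and CADM2. STMN1, VAPB and CADM2 were known from an earlier report on all drinkers. Some of the named transcripts are not reported here. Calls within cohort 1 and of the cohort difference were named after their values were seen. Alternatives were DESeq2 1.42.0, limma-voom 3.58.1, DESeq2's size factors, other filters and covariates, all 28 animals, each cohort alone and each animal left out. Corrections for GC content and length, the measures of GC content, length and zero counts, the alternatives within cohorts and those for the ribosomal protein list were added after seeing the data. For correction, a lowess trend on the property was fitted to the log2 ratio of every library to the mean library and used as an offset, length after GC content.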

Additional observations from a re-analysis of the deposited data

Results flagged for a closer look

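Among the very heavy drinkers, 109 levels and library measures were examined for a single animal far from the rest, and 7 were found. Many of these items were picked on the same animals and vary together, so no chance rate is given. The ratio of the gap to the whole range was 0.603 for RWDD2B, 0.723 for FKBP10 and 0.948 for CALR, in each case because very heavy replicate 2 of cohort 1 was highest, at 21.8, 55.9 and 7.26 CPM. It was 0.963 for HTR2C, where very heavy replicate 1 held 34.3 CPM and the next animal 1.27 CPM, and 0.643 for OPRK1, where very heavy replicate 3 held 16.0 CPM and the next 7.98 CPM. For DNAH9 it was 0.540 and for DNM1 0.618, with very heavy replicates 8 and 9 of cohort 2 highest.

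The effect of group differed between the cohorts in 6 transcripts by a test of the difference itself (edgeR's quasi-likelihood test, cohort 2 minus cohort 1). The log2 difference was 10.9 for IGSF11 (adjusted p = 9.74e-06) and 11.3 for CHD6 (adjusted p = 0.000675), both of which are fitted values against libraries at 0 and no bounds. It was 0.67 for MED12 (adjusted p = 0.00384), −0.61 for DNAJA2 (adjusted p = 0.00891), 0.82 for PLXNB1 (adjusted p = 0.0308) and −0.75 for RHEB (adjusted p = 0.0308).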

How the results depend on the processing

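Over both cohorts the number of transcripts past adjustment stayed at 0 in all alternatives except DESeq2 (30) and cohort 1 alone (19). Transcripts at an unadjusted p under 0.05 numbered 574 to 1022 with single animals left out (807 with all), 1756 in cohort 1 alone and 474 in cohort 2 alone. Without cohort as a term they numbered 538, or 4.03% of those tested against 6.04% with it. In corrections chosen after seeing the data they numbered 760 with GC content and 637 with GC content and length. Transcripts without overlap numbered 631 (4.73%) in cohort 1 alone and 272 (2.04%) in cohort 2 alone. Within cohort 1 the 257 calls became 19 with cohort 1 fitted alone, 991 by DESeq2, 150 by limma-voom, 70 with GC content and 14 with GC content and length corrected, and 156 to 280 with animals left out. Within cohort 2 the 0 calls became 50 by DESeq2 and 1 by limma-voom, and stayed at 0 with each animal left out. The 6 calls of the cohort difference became 511 by DESeq2, 2 with either correction, and 3 to 52 with animals left out (3 without control replicate 10, 11 without control replicate 3, 14 without very heavy replicate 5). Very heavy minus heavy gave 77 calls by DESeq2. The cause of DESeq2's larger counts was not tested.

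The mitochondrial share differed by −0.133 percentage points in cohort 1 alone (1.73 over both cohorts). The GC contrast differed by −0.34 log2 units in cohort 1 alone (past 0.05) and by 0.062 in cohort 2 alone, against −0.15. The length contrast (−0.15) was −0.081 with labels permuted over all 20 animals and −0.033 in cohort 2 alone, and the number of transcripts at 0 (448 more in very heavy drinkers) was 201.5 and 191 more, each no longer past 0.05. The lowest adjusted p over principal components, 0.0141, was 0.799 with labels permuted over all animals and 0.185 on variance stabilized counts. The 23 low-p ribosomal proteins became 7 with GC content and length corrected, 11 without cohort as a term, 1 in cohort 2 alone, and 9 to 36 with animals left out, and their median of 0.19 ran from 0.14 to 0.23 with animals left out.

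Of 86 named transcripts, 6 changed sign under some alternative over both cohorts. Fits within a single cohort are not part of this count. Within cohort 2, TUBB4A, CNRIP1, ADH5, CADM4 and SLC17A6, among others, had the opposite sign. With animals left out, DRD2 ran from −0.30 to 0.97, SLC6A3 from −1.35 to 1.07, SLC18A2 from −1.66 to 0.56, DRD1 from −0.32 to 0.0091 and SLC32A1 from −0.092 to 0.057. Without a change of sign, TH ran from −1.39 to −0.035, OPRK1 from −0.71 to −0.024 and PDYN from −0.76 to −0.21. DRD5 ran from 0.017 to 0.26 and SLC17A6 from 0.084 to 0.37. SLC6A3 was −0.03 with the oligodendrocyte score as a term. SLC32A1 was 0.057 with GC content and 0.050 with GC content and length corrected, and RPL23 was −0.0098 with both corrected. DESeq2 brought 12 named transcripts past adjustment, among them AP1B1, TMA7 and PFDN5. No paired analysis was possible because the labels do not say which control was yoked to which drinker, and replicate numbers follow accession order.

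With 3 very heavy drinkers in cohort 1 and 3 controls in cohort 2, each cohort rests on few animals, and no fit separates group from library quality within cohort 1. Salmon's estimates were available for 1 transcript per symbol, so shifts between transcripts of a gene cannot be seen.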

Other observations

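Other families of short transcripts, mostly encoding subunits of large complexes, were examined by gene symbol after the values had been seen. Of 11 tested chaperonin (CCT) and prefoldin (PFDN) transcripts, 5 (45.5%) were higher in very heavy drinkers at an unadjusted p under 0.05, against 2.67% of all transcripts, and 0 lower, with a median log2 fold change of 0.34 in cohort 1 and 0.00 in cohort 2. Of 39 NDUF transcripts, which include assembly factors of respiratory complex I besides its subunits, 5 (12.8%) were higher and 0 lower, with medians of 0.21 and −0.05. Of 38 proteasome transcripts (PSMA to PSMD), 2 (5.26%) were higher and 0 lower, with medians of 0.19 and −0.07, and of 67 mitochondrial ribosomal proteins (MRPL and MRPS), 2 (2.99%) were higher and 1 lower, with medians of 0.20 and −0.05. Over both cohorts the proteasome and mitochondrial ribosome shares lay near that of all transcripts, whereas within cohort 1 9 and 20 members were higher at that threshold, against 6.53% of all transcripts, and within cohort 2 0 and 1. After correction for GC content and length, 4 chaperonin and prefoldin, 1 NDUF, 1 proteasome and 0 mitochondrial ribosome transcripts were higher. In the same order 0, 0, 1 and 2 were lower, and the NDUF median over both cohorts was −0.03. In these 4 families the cohort 2 median lay between −0.069 and 0.0026, whereas that of the cytosolic ribosomal proteins was 0.17; the differences between families were not tested.

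Membrane transporters of the SLC families, like the zinc fingers below examined by symbol after the values had been seen, showed more members lower than higher. Of 271 tested, 16 (5.90%) were lower and 2 (0.738%) higher at an unadjusted p under 0.05, against 3.38% and 2.67% of all transcripts, with a median of −0.07. Within cohort 1, 30 of the 271 were lower and 9 higher, against 10.4% and 6.53% of all transcripts. Within cohort 2, 6 were lower and 5 higher, against 1.3% and 1.29%. Among 336 zinc finger (ZNF) transcripts 8 (2.38%) were lower and 3 (0.893%) higher, both shares below those of all transcripts, with a median of −0.04.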
